A study of Mus musculus with 16 samples.

Results

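The transcripts described here encode the protein complexes of oxidative phosphorylation. Members were chosen by name alone, as genes whose array name starts with Nduf, Uqcr, Cox4, Cox5, Cox6, Cox7, Cox8 or Atp5, together with Sdha, Sdhb, Sdhc and Sdhd. The array carried 117 probes for 83 such genes, and 80 of them were kept among 14650 genes measured in liver. A gene was kept when 3 or more of the 12 livers had a probe well above background for it, and its brightest probe stood for it. Cox4i2, the lung isoform of subunit IV, passed on 1 liver array, and Cox8b and Cox8c passed on 0. All 80 kept genes lay well above background on all 16 arrays, so none entered through a single group.

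By name, 36 members belong to complex I, 4 to complex II, 7 to complex III, 14 to complex IV and 15 to complex V, which makes 76 subunits. Ndufa4 is counted here in complex I by its name and is now assigned to complex IV. The other 4 share a prefix without being subunits: Ndufaf1 and Ndufa12l (now Ndufaf2) are assembly factors of complex I, Cox4nb is now Emc8 of the endoplasmic reticulum, and Atp5s is now Dmac2l. Uqcr and Atp5f1 are older names of Uqcr11 and Atp5pb.

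Oxidative phosphorylation makes most of the ATP of a resting cell on the inner mitochondrial membrane. Complex I takes electrons from NADH and complex II from succinate, both pass them through ubiquinone to complex III and on through cytochrome c to complex IV, and complex V uses the resulting proton gradient to make ATP. Hepatocytes are rich in mitochondria, whereas activated lymphocytes and neutrophils draw heavily on glycolysis. Several complex IV subunits exist as isoforms, with forms of heart and skeletal muscle such as Cox6a2 and Cox7a1 beside the widespread forms Cox6a1 and Cox7a2.

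The study asked what stem cells from fat do in acute hepatitis of the mouse. Female C57Bl/6 mice all received 300 µg of concanavalin A, a lectin from jack beans whose stimulation of T cells inflames the liver, and no mouse without it was measured. Stem cells grown out of inguinal fat of C57Bl/6 mice went into the tail vein at 100000 per mouse. Livers came from 4 groups of 3 mice: concanavalin A alone for 2 h (mice 11, 12 and 13), concanavalin A with stem cells at once and liver taken at 2 h (mice 8, 9 and 10), concanavalin A alone for 5 h (mice 4, 5 and 6), and stem cells 3 h after concanavalin A with liver taken at 5 h (mice 1, 2 and 3). Inflammatory cells of the liver at 5 h came as 2 samples without stem cells (983 and 985) and 2 samples with stem cells given at 3 h (987 and 989). For samples 983 and 985 the source label also mentions stem cells, while the treatment and description labels do not, and they were used as untreated. Whether 1 mouse gave 1 sample of inflammatory cells is not in the labels, so tests among them measure the spread between these samples. Comparisons of them with liver used a common estimate of the spread over all 16 arrays, 12 of them livers. Standard errors and p-values there rest mostly on the livers.

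Arrays had from 52.1% to 62.5% of their spots well above background. Slides 1, 2 and 3 each held 1 liver of every liver group, and slide 4 held all 4 samples of inflammatory cells, so cell source and slide cannot be told apart. Levels are log2 signal relative to the 75th percentile of the same array, and differences are log2 with the standard error of the limma fit after ±. They compare shares of the RNA on an array: fewer cells of a type and less RNA per cell cannot be told apart. A gene was called when its limma p, adjusted by Benjamini-Hochberg over all genes, was under 0.05.

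The liver preparations matched their labels by marker genes. All 15 of 15 hepatocyte markers, among them Alb and Apoa1, were lower in inflammatory cells than in liver in both comparisons at 5 h, and none was at 0 there. Their summed relative signal ran from 5705 to 9141 in livers, from 166 to 392 in inflammatory cells without stem cells and from 321 to 663 in those with them. All 8 of 8 B cell markers and 9 of 9 markers of NK and cytotoxic cells were higher in inflammatory cells in both comparisons, and T cell markers were higher in 8 of 9 tested without stem cells and 9 of 10 with them. Erythroid markers were also higher in inflammatory cells, in 4 of 5 measured without stem cells and 5 of 5 with them. Hba-a1, a globin gene, differed by 2.45 ± 0.25 and 2.81 ± 0.25, and Alas2, which starts haem synthesis in red cell precursors, by 2.58 ± 0.41 and 3.48 ± 0.41. The summed relative signal of the erythroid markers ran from 443 to 704 in livers at 5 h, from 2055 to 2650 in inflammatory cells without stem cells and from 2604 to 4374 in those with them. Of 9 neutrophil markers 3 were higher without and 5 with stem cells and 0 lower, and of 9 markers of macrophages and monocytes 2 were higher and 3 lower without stem cells and 4 higher and 0 lower with them. Endothelial markers were lower in 5 of 9 without stem cells, and in 7 of 9 with them, where 1 was higher. The part of these cell types in the members' differences between inflammatory cells and liver was not tested.

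Transcripts of the respiratory chain were lower in inflammatory cells than in liver at 5 h in every complex. Without stem cells, 75 of 80 members were lower and 2 higher, against 32.9% and 30.7% of all genes tested. With stem cells, 77 were lower and 2 higher, against 36.6% and 29.7% of all genes. The median difference of the members was -1.59 without stem cells, where all genes had a median of -0.01, and -1.89 with stem cells, where all genes had -0.20. These comparisons share no sample. A difference beyond 1 log2 unit downward was seen in 70 of the 80 members without stem cells (87.5%) and in 71 with them (88.8%), against 29.4% and 32.8% of all genes. Beyond 2 log2 units the share of members was 22.5% without stem cells, against 18% of all genes, and 43.8% with them, against 19.9%. The share of members was thus well above that of all genes at the first size in both comparisons, and at the second it was nearer to it without stem cells than with them. The inflammatory cell samples did not overlap the livers for 75 lower members without stem cells (38.2% of all genes) and for 77 with them (43.4%).

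**Figure D1:**
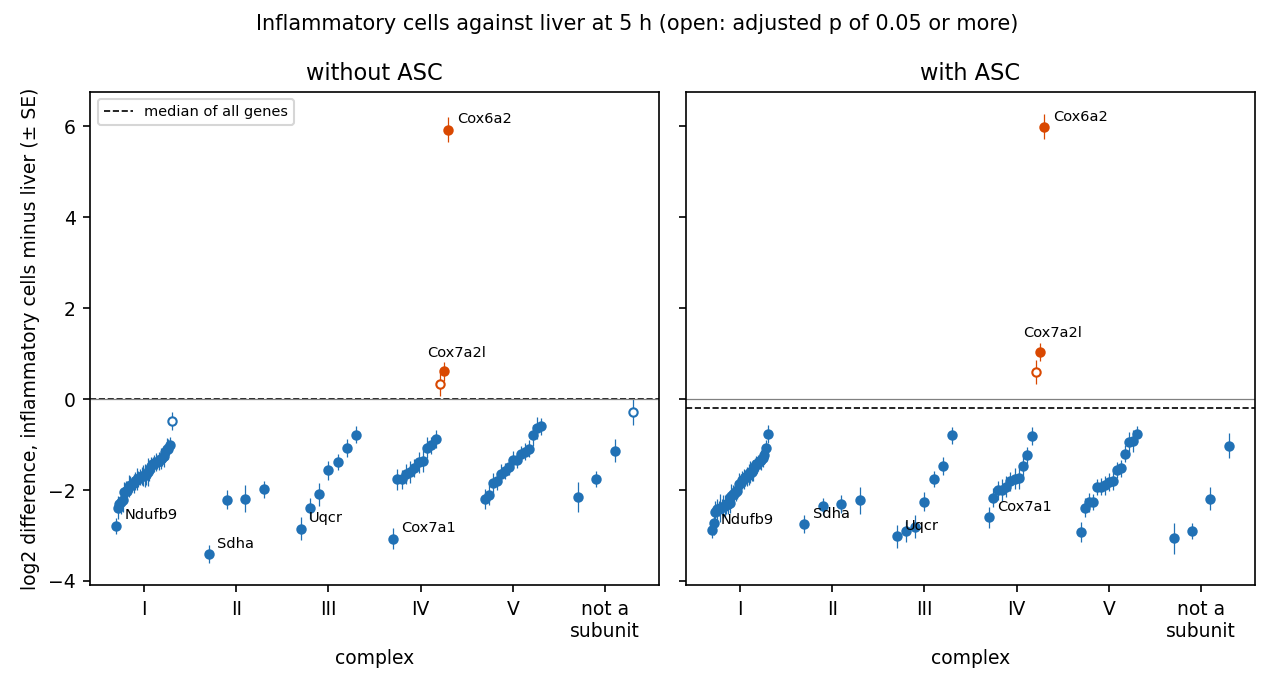
Log2 difference between inflammatory cells and liver at 5 h for the 80 members, grouped by complex, without stem cells and with stem cells in separate panels. Each dot is 1 gene with its standard error, open dots were not called, ASC stands for the stem cells, and the dashed line is the median of all genes. Most dots lie between -1 and -3, and Cox6a2 stands alone near 6.

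Complex I, the entry point of electrons from NADH, was lower in 35 of 36 members without stem cells, with a median of -1.68, and in 36 of 36 with stem cells, with a median of -1.86. Its 7 nuclear core subunits, which carry the flavin, the iron-sulphur clusters and the quinone site, had medians of -1.72 and -2.02. Ndufv1, which binds NADH, had levels of 5.79, 5.91 and 5.87 in livers at 5 h without stem cells and of 3.54 and 3.56 in inflammatory cells. With stem cells the livers were at 6.04, 5.83 and 5.89 and the inflammatory cells at 3.40 and 3.62. The samples of a kind lay close together and the kinds were far apart, a difference of -2.31 ± 0.16 without stem cells (limma, adjusted p 5.07e-08) and -2.41 ± 0.16 with them (adjusted p 3.51e-08). The accessory subunit Ndufb9 fell furthest in complex I without stem cells, from between 6.78 and 7.45 in the 12 livers to 4.20, 4.13, 4.18 and 4.40 in inflammatory cells. Its difference was -2.79 ± 0.18 without stem cells and -2.88 ± 0.18 with them, limma adjusted p 1.70e-08 and 1.35e-08. The accessory subunit Ndufa10 differed by -2.39 ± 0.26 and -2.36 ± 0.26. Ndufb7 was the complex I member with the smallest difference, -0.48 ± 0.20 without stem cells, which did not pass the test (limma adjusted p 0.0516), and -0.77 ± 0.20 with them, which did (adjusted p 0.00465).

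Complex II, whose subunits also serve the tricarboxylic acid cycle as succinate dehydrogenase, showed the lowest median of the complexes in both comparisons, -2.20 without stem cells and -2.33 with them, over 4 of 4 members. Sdha, the flavoprotein that oxidises succinate, was at 3.54, 3.67 and 3.63 in livers at 5 h without stem cells and at 0.31 and 0.10 in inflammatory cells. With stem cells it was at 3.79, 3.57 and 3.74 in liver and at 0.96 and 0.94 in inflammatory cells. All inflammatory cell samples lay far below all livers, and the pair without stem cells lay lowest. Sdha was 10.6-fold lower without stem cells (-3.41 ± 0.19, limma adjusted p 5.72e-09), the largest downward difference of any member there, and 6.74-fold lower with them (-2.75 ± 0.19, adjusted p 4.76e-08). Sdhb, the iron-sulphur subunit, and the membrane anchors Sdhc and Sdhd differed by -2.19 ± 0.30, -2.21 ± 0.20 and -1.99 ± 0.19 without stem cells.

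Complex III was lower in 7 of 7 members in both comparisons, with medians of -1.57 and -2.26. Uqcr, a small subunit, was at 7.14 to 7.94 in the 12 livers and at 4.92, 4.09, 4.66 and 4.52 in inflammatory cells. Its differences were -2.85 ± 0.25 and -3.02 ± 0.25. Uqcrb, which helps to form the ubiquinone site, followed at -2.40 ± 0.23 and -2.91 ± 0.23. The core proteins Uqcrc1 and Uqcrc2 differed by -1.08 ± 0.20 and -1.57 ± 0.21 without stem cells and by -1.48 ± 0.20 and -2.26 ± 0.21 with them. Uqcrfs1, the Rieske iron-sulphur protein, lay between these core proteins without stem cells and with them, at -1.39 ± 0.17 and -1.76 ± 0.17. Uqcrh, the hinge protein beside cytochrome c1, had the smallest difference in the complex, -0.78 ± 0.19 and -0.80 ± 0.19. A second, dimmer probe for Uqcrq went the other way, at 0.58 and 0.50, against -2.10 and -2.81 for its brightest probe.

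Complex V, the ATP synthase, was lower in 15 of 15 members, with medians of -1.35 without stem cells and -1.83 with them. Its catalytic subunit Atp5b was at 8.16, 8.26 and 8.17 in livers without stem cells at 5 h and at 7.02 and 6.71 in inflammatory cells, a difference of -1.34 ± 0.18 (limma adjusted p 3.08e-05). With stem cells the difference was -1.92 ± 0.18 (adjusted p 9.42e-07). The genes Atp5g1, Atp5g2 and Atp5g3 encode the same mature subunit c of the rotor ring and differed unequally. Atp5g1 was at 5.58 to 6.07 in livers and at 3.58, 3.48, 2.54 and 3.28 in inflammatory cells, with differences of -2.19 ± 0.22 and -2.93 ± 0.22. Atp5g3 differed by -1.58 ± 0.18 and -2.27 ± 0.18, and Atp5g2 by -0.60 ± 0.18 and -0.77 ± 0.18. Whether these genes differed from each other was not tested. Atp5e, a small subunit of the central stalk, had a difference of -0.64 ± 0.25 without stem cells (limma adjusted p 0.036) and -0.92 ± 0.25 with them (adjusted p 0.00511). Under quantile normalization Atp5g2 turned to 0.25 and 0.29 and Atp5e to 0.17 without stem cells, and neither was called there. Other probes went the other way for Atp5j2 (0.85 and 1.14), Atp5f1 (1.50 and 2.12) and the complex I gene Ndufa3 (2.04 and 2.28). Of 30 other probes of 24 members, 26 had the sign of the brightest probe.

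Complex IV was the only complex with members higher in inflammatory cells: 11 of 14 were lower and 2 higher in both comparisons, with medians of -1.37 and -1.74. The higher members were the muscle isoform Cox6a2 and Cox7a2l. Promoters of Cox6a1, of the pair Cox7a1 and Cox7a2, and of Cox7a2l are shown first, since the results of complex IV turn on these genes. Cox7a2l is counted in complex IV by its name. The promoter of Cox6a2 is not shown, since it was not matched in the RefSeq table used. The RefSeq promoters of GRCm38.p6 are given from 250 bases before to 30 bases after the annotated start, in the 5′ to 3′ direction of the gene. They lie at chr5:115348929-115349208 on the minus strand for Cox6a1, chr9:79759824-79760103 on the minus strand for Cox7a2, chr17:83514304-83514583 on the minus strand for Cox7a2l and chr7:30183921-30184200 on the plus strand for Cox7a1. Capitals mark matches, on either strand, to the letters searched for regulators of respiratory genes: GCGCATGC for NRF1, CCGGAAG for GABPA, AAGATGGCG for YY1 and GGGCGG for SP1.
Cox6a1: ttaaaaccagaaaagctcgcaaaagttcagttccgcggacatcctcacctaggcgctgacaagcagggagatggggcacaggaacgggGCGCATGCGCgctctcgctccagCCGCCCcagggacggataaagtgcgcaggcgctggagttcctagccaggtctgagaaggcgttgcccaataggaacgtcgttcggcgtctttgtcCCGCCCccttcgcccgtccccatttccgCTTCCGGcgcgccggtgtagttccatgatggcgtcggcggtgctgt
Cox7a2: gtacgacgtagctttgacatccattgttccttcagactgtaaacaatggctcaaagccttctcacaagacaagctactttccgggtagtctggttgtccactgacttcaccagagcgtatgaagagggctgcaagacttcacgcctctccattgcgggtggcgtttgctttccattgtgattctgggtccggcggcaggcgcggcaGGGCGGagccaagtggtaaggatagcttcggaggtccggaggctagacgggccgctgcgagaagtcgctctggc
Cox7a2l: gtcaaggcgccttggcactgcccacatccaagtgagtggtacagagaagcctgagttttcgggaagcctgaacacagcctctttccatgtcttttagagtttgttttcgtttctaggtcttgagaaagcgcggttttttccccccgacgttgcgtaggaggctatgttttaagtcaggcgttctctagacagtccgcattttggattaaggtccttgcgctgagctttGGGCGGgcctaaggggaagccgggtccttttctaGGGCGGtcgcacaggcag
Cox7a1: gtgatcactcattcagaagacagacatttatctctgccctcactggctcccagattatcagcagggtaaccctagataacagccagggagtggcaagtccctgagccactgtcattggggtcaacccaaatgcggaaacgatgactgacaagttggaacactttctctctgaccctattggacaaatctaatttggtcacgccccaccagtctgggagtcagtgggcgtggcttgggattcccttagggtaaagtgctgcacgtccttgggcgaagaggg
Cox6a1 had 2 overlapping matches for NRF1, 1 on each strand, 1 match for GABPA and 2 for SP1, Cox7a2 had 1 for SP1 and Cox7a2l 2 for SP1, and none of the letters was found in the window of Cox7a1. Promoters were matched for 64 of the 76 subunits. NRF1 letters were found in 9 of the 64 (14.1%) against 2.58% of 32851 RefSeq promoters of the same length, and GABPA letters in 15 (23.4%) against 8.45%. SP1 letters were found in 25 (39.1%) against 34.7%, YY1 letters in 0 against 1.05%, and TATAAA in 5 (7.81%) against 13.1%. These matches are descriptions of the sequence and not evidence of binding.

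Cox6a2 is the heart and skeletal muscle form of subunit VIa, and its probe lies on chromosome 7 of build mm8 at 127996794 to 127996853. Its level was -2.72, -3.41 and -3.50 in livers at 5 h without stem cells and 2.59 and 2.85 in inflammatory cells. With stem cells it was -2.40, -2.92 and -2.71 in livers and 3.36 and 3.26 in inflammatory cells. All 4 inflammatory cell samples lay far above all 12 livers, whose highest value was -2.40. Cox6a2 was 61.0-fold higher in inflammatory cells without stem cells (5.93 ± 0.28, limma adjusted p 9.61e-10) and 63.4-fold higher with them (5.99 ± 0.28, adjusted p 1.15e-09). The difference kept its direction and its call in 14 of 14 alternatives for each comparison, with values from 4.51 to 6.18 without stem cells and from 4.47 to 6.56 with them. The liver levels of Cox6a2 were low, so its fold sizes are less certain than its direction. Cox6a1, the widespread form, went the other way, from 8.75 to 9.54 in livers to 7.50, 7.15, 7.24 and 7.37 in inflammatory cells. Its differences were -1.76 ± 0.23 and -1.93 ± 0.23, limma adjusted p 2.12e-05 and 8.68e-06.

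Because Cox6a2 is a muscle gene, 8 other genes of striated muscle were read beside it, and 4 of them had a probe that entered the tests. Tnni2, a fast skeletal troponin, was higher in inflammatory cells by 3.60 ± 0.33 and 5.38 ± 0.33. It was the only 1 of the 4 called without stem cells, and 3 of 4 were called with them. Mylpf was at 0.51 ± 0.25 and 1.02 ± 0.25, and Tnnt3 at 1.00 ± 0.55 and 2.38 ± 0.55. Acta1 lay below 0 and was not called in either comparison (-0.48 ± 0.44 and -0.29 ± 0.44). The summed relative signal of the 4 ran from 0.30 to 0.50 in livers, from 1.00 to 2.24 in inflammatory cells without stem cells and from 5.55 to 5.68 in those with them, and their part in the result was not tested. In RefSeq gene order Cox6a2 lies beside the leukocyte integrin genes, which were looked at after its value was seen. Itgax was higher in inflammatory cells by 4.09 ± 0.26 and 5.55 ± 0.26 and Itgam by 3.49 ± 0.34 and 4.14 ± 0.34. On the other side 9130023H24Rik was not called (-0.14 ± 0.36 and 0.39 ± 0.36), Armc5 was higher (1.51 ± 0.18 and 1.72 ± 0.18) and Tgfb1i1 lower (-1.31 ± 0.32 and -1.24 ± 0.32).

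Cox7a1, the muscle form of subunit VIIa, did not share the direction of Cox6a2. It was at 1.22, 1.21 and 1.09 in livers at 5 h without stem cells and at -1.88 and -1.92 in inflammatory cells. With stem cells it was at 1.72, 1.12 and 1.24 in liver and at -1.18 and -1.30 in inflammatory cells. The samples of inflammatory cells lay below all livers, an 8.40-fold lower signal without stem cells (-3.07 ± 0.23, limma adjusted p 9.16e-08) and a difference of -2.60 ± 0.23 with them (adjusted p 4.66e-07). Its widespread counterpart Cox7a2 was lower as well, at 6.33 to 6.93 in livers and at 5.42, 4.62, 5.02 and 4.84 in inflammatory cells, with differences of -1.60 ± 0.24 and -1.73 ± 0.24.

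Cox7a2l was the second member to be higher in inflammatory cells. It was at 3.00, 3.04 and 2.97 in livers without stem cells and at 3.38 and 3.85 in inflammatory cells. With stem cells it was at 3.24, 3.16 and 3.48 in livers and at 4.53 and 4.13 in inflammatory cells. The groups did not overlap in either comparison. Cox7a2l was 1.52-fold higher without stem cells (0.61 ± 0.20, limma adjusted p 0.0186) and 2.05-fold higher with them (1.04 ± 0.20, adjusted p 0.000553). The first of these calls was lost without sample 985, where the difference was 0.37 (adjusted p 0.18), and in 3 other alternatives. The call with stem cells was lost in 1 of 14, under normexp background correction (0.75, adjusted p 0.0972).

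The testis form Cox6b2 was not called, at 0.34 ± 0.26 (limma adjusted p 0.275) and 0.60 ± 0.26 (adjusted p 0.0555), while the widespread Cox6b1 was lower by -1.65 ± 0.21 and -1.81 ± 0.21. Cox8a was called lower in both comparisons, at -0.88 ± 0.19 and -0.82 ± 0.19, and with quantile normalization it came to 0.02 with stem cells. Among the 4 members that are not subunits, Cox4nb was not called without stem cells (-0.29 ± 0.28, limma adjusted p 0.391), and Ndufaf1, Ndufa12l and Atp5s were lower in both comparisons. With stem cells Atp5s had the largest downward difference of all members (-3.07 ± 0.33), and Ndufaf1 was at -2.90 ± 0.17.

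**Figure D2:**
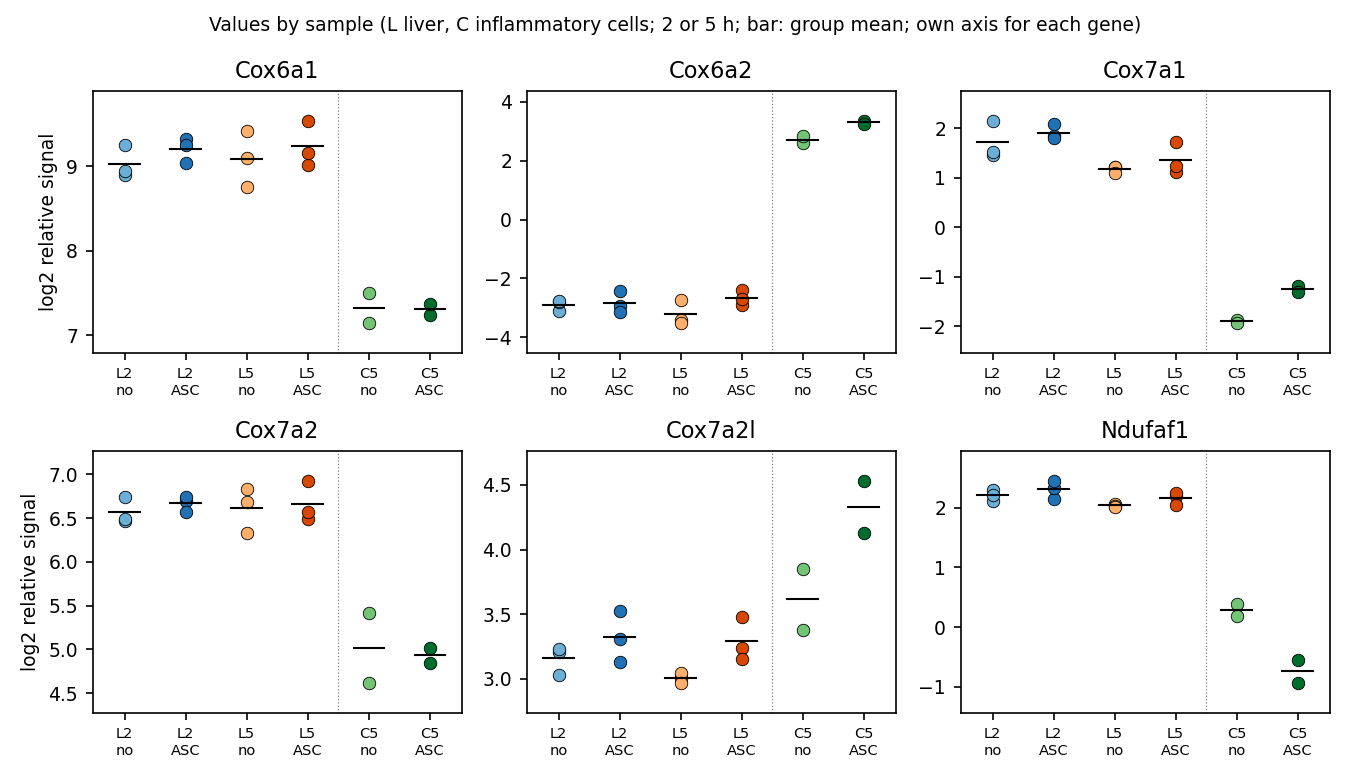
Level of Cox6a1, Cox6a2, Cox7a1, Cox7a2, Cox7a2l and Ndufaf1 in every sample, on the same log2 scale of relative signal, with a separate vertical axis for each gene. Each point is 1 array, arranged by group, with ASC for the stem cells. Cox6a2 and Cox7a2l were higher in the inflammatory cell samples than in the 5 h livers, and the other 4 genes were lower.

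The size of the downward difference moved with the scaling of the arrays, and the median stayed below 0 under the alternatives run. Quantile normalization gave medians of -0.93 without stem cells and -1.01 with them, and there the medians of all genes were 0.11 and -0.03. Across 9 alternative settings of processing, the number of lower members ran from 60 to 76 without stem cells and from 62 to 77 with them.

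Genes around the respiratory chain were read from lists of the same pathway, beside 32.9% lower and 30.7% higher among all genes without stem cells and 36.6% lower and 29.7% higher with them. In the tricarboxylic acid cycle, 15 of 18 genes were lower in inflammatory cells without stem cells and 16 of 18 with them, and 0 were higher. Pcx, which makes oxaloacetate from pyruvate, differed by -5.68 ± 0.26 and -5.34 ± 0.26, and Idh2 by -3.54 ± 0.28 and -3.05 ± 0.28. Proteins of the mitochondrial ribosome, which translate the mitochondrially encoded subunits, were lower in 48 of 78 and in 67 of 78, with 0 higher. Among assembly factors of the complexes, 20 of 30 and 25 of 30 were lower. Sdhaf1, an assembly factor of complex II, was higher by 3.10 ± 0.26 and 3.52 ± 0.26, opposite to the 4 subunits of that complex. Among electron and nucleotide carriers, 11 of 17 and 15 of 17 were lower, led by Etfdh, which feeds electrons from fatty acid oxidation into ubiquinone (-4.65 ± 0.31 and -4.95 ± 0.31). Slc25a4, the ADP/ATP carrier of heart and muscle, was higher by 1.30 ± 0.24 and 1.35 ± 0.24. Of 13 mitochondrially encoded subunits, 3 had a measured probe and 0 were called, with differences from -1.13 to -0.33 over both comparisons.

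Glycolysis was divided. Of 24 genes, 13 were lower and 5 higher without stem cells, and 12 lower and 5 higher with them. The lower ones included Pklr, the pyruvate kinase of liver and red cells (-7.61 ± 0.61 and -5.46 ± 0.61). The higher ones included the glucose transporter Slc2a3 (3.46 ± 0.38 and 4.35 ± 0.38), Pfkp (2.75 ± 0.31 and 1.62 ± 0.31) and Pkm (2.62 ± 0.38 and 2.23 ± 0.38). Regulators of mitochondrial biogenesis were also divided, with 3 lower and 5 higher of 15 without stem cells and 5 lower and 5 higher with them. Ppargc1a, a coactivator that induces respiratory genes, was lower by -2.93 ± 0.42 and -3.41 ± 0.42. Its relative Ppargc1b was higher by 2.33 ± 0.34 and 0.97 ± 0.34, and Nrf1 by 1.49 ± 0.25 and 1.31 ± 0.25. Among uncoupling proteins 2 of 4 were higher in each comparison, Slc25a14 and Ucp2 without stem cells and Ucp1 and Ucp2 with them. Ucp2 was at 2.50 ± 0.25 and 2.89 ± 0.25. Ucp1 was at -0.64 ± 0.33, not called, and at 2.73 ± 0.33, with low group means of -6.90 to -3.31.

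Within liver the members varied little. The standard deviation of a member over the 12 livers had a median of 0.18, against 0.38 for all genes, and 68 of 80 (85%) were under 0.25, against 26.2% of all genes. It ran from 0.10 for Ndufv1 to 0.38 for Atp5s, followed by Cox7a1 at 0.37 and Cox6a2 at 0.34. Over the 4 samples of inflammatory cells the median was 0.25, against 0.48 for all genes. The members lay well above background on every array, whereas the filter admitted other genes that did so on only some arrays. The sets were not matched for signal, and the part of signal level in the smaller spread of the members was not tested. What variation there was ran across many members of an array at once. The median deviation of the 80 members from their mean over livers was highest in mouse 1 (0.28) and mouse 10 (0.25), both given stem cells, and lowest in mouse 6 (-0.26) and mouse 11 (-0.15), both without. On the same arrays the deviations of all genes were 0.08, 0.07, -0.11 and -0.08. The other 8 livers lay between -0.13 and 0.08. The array of mouse 1 also had the lowest share of spots well above background (52.1%) and the lowest 75th percentile signal (212) of all arrays. The part of array signal in these deviations was not tested.

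**Figure D3:**
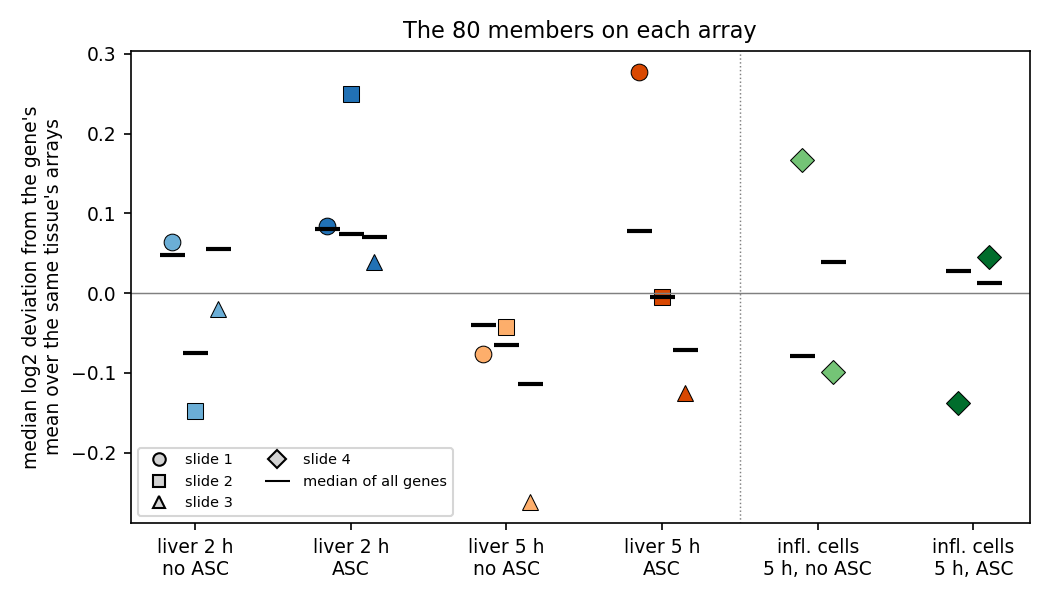
Median deviation of the 80 members from their mean over the arrays of the same kind (liver or inflammatory cells), 1 point per array. Points are arranged and coloured by group, and their shape gives the slide. Black dashes show the same median over all genes. Mice 1 and 10 stand above and mouse 6 below the other livers.

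Stem cells given at once left the respiratory transcripts of 2 h liver without a called difference. In limma 0 of 80 members passed, against 0.0273% of all genes, and 0 had an unadjusted p under 0.05, against 5.64% of all genes. The lowest adjusted p was 0.862. By sign, 78 of 80 lay above 0, against 62.3% of all genes, with a median of 0.14 against 0.08 for all genes. In 13 members the 3 livers with stem cells all lay above the 3 without (4.8% of all genes), and in 0 all lay below (3.45%). Atp5k, a small membrane subunit of ATP synthase, was at 5.53, 5.76 and 5.95 without stem cells and at 5.91, 6.06 and 6.18 with them. The groups overlapped, and the difference of 0.30 ± 0.18 was the largest of the members. Uqcrq, a small subunit of complex III, came next at 0.29 ± 0.17, and its groups did not overlap, at 8.47, 8.77 and 8.61 without stem cells and 8.89, 8.84 and 8.99 with them. Ndufa2, an accessory subunit of complex I, was at 6.31, 6.46 and 6.36 without and at 6.48, 6.59 and 6.70 with stem cells, a difference of 0.21 ± 0.13 without overlap. The members below 0 were the core complex I subunit Ndufs1 at -0.07 ± 0.14 and Sdha at -0.0025 ± 0.17.

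That common sign was strongest on 1 slide and turned under another background correction. Each slide held 1 mouse of each group, so slide and mouse cannot be told apart. The members' median difference within slides was 0.00 on slide 1, 0.39 on slide 2 (mice 10 and 11) and 0.05 on slide 3, with 41, 79 and 52 members above 0. All genes had 0.03, 0.19 and 0.01. Without mice 10 and 11, a choice made after seeing these values, 51 of 80 lay above 0 and the median was 0.02. With normexp background correction 3 of 80 lay above 0 and the median was -0.32, where all genes had 0.06.

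Stem cells given 3 h after concanavalin A likewise left liver at 5 h without a called member. In limma 0 of 80 members passed, against 0.0341% of all genes, and 2 had an unadjusted p under 0.05, against 12.4% of all genes. By sign, 78 of 80 were above 0, against 60.1% of all genes, with a median of 0.18 against 0.08. In 10 members the groups did not overlap upward (12.8% of all genes), and in 0 downward (9.37%). The upward count is near the share of all genes, and the downward count is below it. Atp5s was at -0.29, -0.54 and -0.03 without stem cells and at -0.03, 1.00 and 0.02 with them. Mouse 2 alone stood high, and the difference was 0.62 ± 0.26 (limma adjusted p 0.374). Cox6a2 differed by 0.53 ± 0.25 (adjusted p 0.427), from levels of -2.72, -3.41 and -3.50 to -2.40, -2.92 and -2.71, which overlap. Ndufb5, an accessory subunit of complex I, was at 1.99, 1.99 and 1.83 without stem cells and at 2.35, 2.06 and 2.28 with them, which do not overlap (0.29 ± 0.13, limma adjusted p 0.393). Within slides the median of the members was 0.33, 0.04 and 0.15 on slides 1, 2 and 3, with 79, 51 and 71 above 0. The largest of these is the slide of mouse 1. The members below 0 were Ndufs1 (-0.06 ± 0.14) and Ndufa12l (-0.02 ± 0.15).

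Markers of other cells also lay above 0 in 5 h liver with stem cells, with 0 called: 8 of 9 neutrophil markers (summed relative signal 142 to 203 without and 187 to 240 with stem cells), 8 of 9 macrophage and monocyte markers (55.1 to 87.2 and 82.7 to 105.4), 8 of 9 endothelial markers (21.0 to 29.4 and 33.0 to 45.2), 10 of 10 markers of adipose stromal cells (74.8 to 93.2 and 88.9 to 118) and 13 of 15 hepatocyte markers. At 2 h all 5 measured erythroid markers lay below 0 with stem cells, with sums of 203 to 299 against 457 to 589, and 0 were called. Their part in the members' differences was not tested. The difference between the stem cell effects at 5 h and at 2 h was called for 0 of 80 members, against 0.0137% of all genes, and 0 members had an unadjusted p under 0.05, against 4.67%. Its median was 0.02, and the members with the smallest p upward were Atp5s (0.57 ± 0.37), Cox6a2 (0.48 ± 0.36) and Uqcrfs1 (0.17 ± 0.19). Those downward were Ndufa12l (-0.16 ± 0.21), Ndufs7 (-0.12 ± 0.23) and Ndufb2 (-0.10 ± 0.24).

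**Figure D4:**
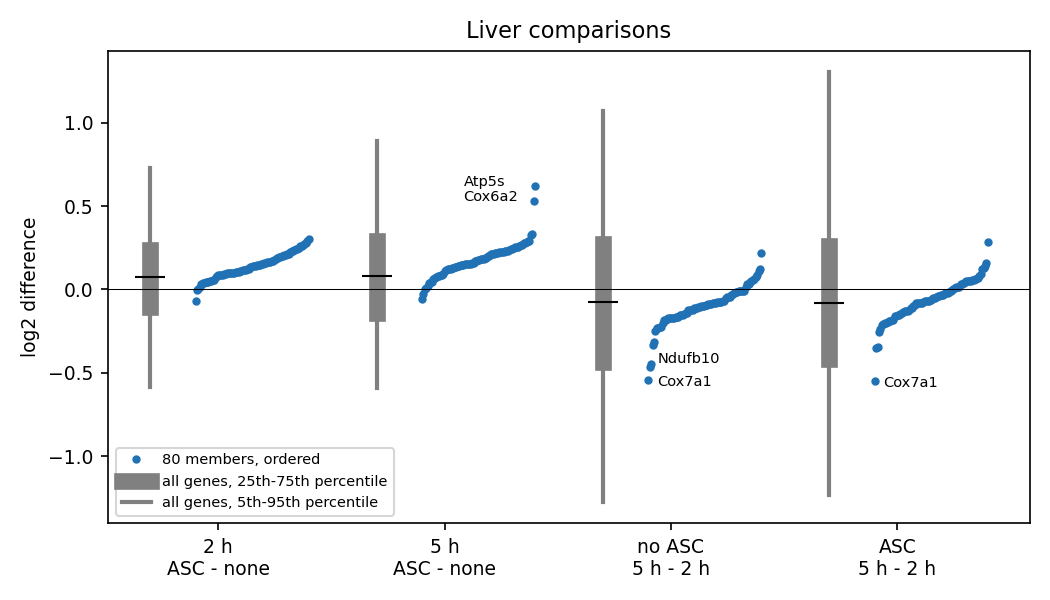
Log2 differences of the 80 members in the 4 liver comparisons, drawn as dots in order of size, beside grey bars for all genes (thick, 25th to 75th percentile, and thin, 5th to 95th percentile) with the median of all genes as a black dash and ASC for the stem cells. The members span a narrower range than all genes in each comparison, and the sets were not matched for signal.

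Between 2 h and 5 h after concanavalin A, liver RNA changed widely, and 0 respiratory transcripts were called. Without stem cells, 0 of 80 members passed in limma, against 15.7% of all genes, and 3 had an unadjusted p under 0.05, against 32.3%. By sign, 68 of 80 were below 0, against 56% of all genes, with a median of -0.10 against -0.08. In 7 members the 5 h livers all lay below the 2 h livers (20.7% of all genes), and in 0 all above (15.2%). Cox7a1 had the lowest value, with levels of 1.46, 1.53 and 2.15 at 2 h and of 1.22, 1.21 and 1.09 at 5 h. The groups did not overlap, and the difference of -0.54 ± 0.21 did not pass (limma adjusted p 0.108). Ndufb10, an accessory subunit of complex I, was at 6.63, 6.87 and 6.98 at 2 h and at 6.29, 6.43 and 6.35 at 5 h, also without overlap (-0.47 ± 0.15, limma adjusted p 0.0604). It passed in 5 of 17 alternatives, among them the one without mouse 11 (adjusted p 0.0437). Ndufa6, another accessory subunit of complex I, stood at -0.33 ± 0.15 (limma adjusted p 0.154). The members with the smallest p upward were Cox6b2 (0.22 ± 0.21), Cox4nb (0.13 ± 0.16) and Ndufa12 (0.11 ± 0.17).

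With stem cells the same times gave 0 called of 80 members in limma, against 18.5% of all genes, and 3 with an unadjusted p under 0.05, against 33.4%. By sign, 55 of 80 lay below 0, against 57.5% of all genes, and the median was -0.06 against -0.08. In 2 members the 5 h livers all lay below the 2 h livers (24.2% of all genes). Cox7a1 was at 1.84, 1.81 and 2.08 at 2 h and at 1.72, 1.12 and 1.24 at 5 h, a difference of -0.55 ± 0.21 without overlap (limma adjusted p 0.0987). It passed in 1 of 17 alternatives. Ndufb10 differed by -0.34 ± 0.15 (adjusted p 0.14) and Ndufa6 by -0.35 ± 0.15 (adjusted p 0.129). Upward the smallest p belonged to Cox6b2 (0.28 ± 0.21), Atp5g1 (0.14 ± 0.15) and Atp5a1 (0.13 ± 0.14). The within-slide medians took both signs, at 0.21, -0.24 and -0.15 with stem cells and -0.15, 0.12 and -0.26 without.

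Around the complexes, some genes that act on mitochondria were called between 2 h and 5 h, as were 15.7% of all genes without stem cells and 18.5% with them. Ppargc1b fell by 2.53 on the log2 scale without stem cells (SE 0.29, limma adjusted p 0.00166) and by 3.22 with them (SE 0.29, adjusted p 0.000297). Ppargc1a fell by 1.28 and 1.58 (SE 0.28) and Esrra, a nuclear receptor that works with both, by 1.25 and 1.55 (SE 0.35), so that 3 of 15 regulators were lower in each comparison. With stem cells 1 was higher, Gabpb1. Of 30 assembly factors 2 were lower in each, Sdhaf1 (-1.11 ± 0.21 and -1.21 ± 0.21) and Tmem126b (-0.61 ± 0.18 and -0.62 ± 0.18). In the tricarboxylic acid cycle 0 of 18 genes were called. Of 78 mitochondrial ribosomal genes 2 were higher and 1 lower without stem cells, and 1 was higher and 2 lower with them. In glycolysis 6 of 24 were higher and 1 lower without stem cells, and 7 were higher with them, among them Pfkp (1.85 ± 0.25 in both) and Hk1 (1.29 ± 0.28 and 1.81 ± 0.28). Of the same lists, 0 genes were called for stem cells against none at either liver time.

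Among inflammatory cells, stem cells against none gave 0 called of 80 members in limma, against 0.014% of all genes, and 1 with an unadjusted p under 0.05, against 18.1%. By sign, 28 were above 0, against 54.9% of all genes, and the median was -0.06 against 0.09. With 2 samples against 2, groups did not overlap upward in 15 members (27.3% of all genes) and downward in 14 (25.4%). The median standard error was 0.36, so differences of the size seen in liver were not detectable. Ndufaf1 was at 0.39 and 0.18 without stem cells and at -0.93 and -0.55 with them (-1.02 ± 0.36, limma adjusted p 0.227). Ndufab1, the mitochondrial acyl carrier protein within complex I, was at 3.48 and 2.75 without and at 1.71 and 2.43 with stem cells (-1.04 ± 0.44, adjusted p 0.285). Ndufa12l was at 1.35 and 0.63 without and at -0.47 and 0.29 with stem cells (-1.08 ± 0.45, adjusted p 0.278). In the other direction stood Sdha (0.74 ± 0.34), Cox7a2l (0.71 ± 0.38), Cox7a1 (0.66 ± 0.34) and Cox6a2 (0.59 ± 0.34), with limma adjusted p of 0.312 or more for these.

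The cell markers moved beside these values. All 9 of 9 neutrophil markers and 9 of 9 macrophage and monocyte markers lay above 0 with stem cells, with 0 called in limma. Their summed relative signals were 140 and 210 without and 611 and 661 with stem cells for neutrophils, and 31.97 and 70.5 without and 124 and 155 with them for macrophages and monocytes. All 15 hepatocyte markers lay above 0 as well. Of 9 NK and cytotoxic markers 7 lay below 0, with sums of 109 to 247 without and 127 to 139 with stem cells, and of 9 T cell markers 5 lay below 0 (58.5 to 81.1 and 51.9 to 82.9). Of the 5 erythroid markers 5 lay above 0. The share of all genes above 0 was 54.9%. Endothelial marker sums ran from 5.23 to 9.26 without and from 11.6 to 11.9 with stem cells. Those of striated muscle ran from 1.00 to 2.24 and from 5.55 to 5.68, and those of B cells from 140 to 330 and from 313 to 323. The part of these cells in the members' differences was not tested.

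The stem cell effect in inflammatory cells was set against that in 5 h liver in the fit of all 16 arrays. Of 80 members 1 was lower, against 2.04% of all genes, and 0 were higher, against 0.567%. The lower one was Ndufaf1, with a difference of effects of -1.15 ± 0.24 (limma adjusted p 0.0296). That fit used a common estimate of the spread for livers and inflammatory cells. In the fit of inflammatory cells alone the standard error was larger and Ndufaf1 was not called. In liver the levels of Ndufaf1 were 2.07, 2.03 and 2.02 without and 2.20, 2.05 and 2.24 with stem cells, which overlap. Its levels in inflammatory cells with stem cells lay below those without. The call held in 8 of 19 alternatives and was lost without mouse 1, 3, 4, 5 or 6 or sample 983 or 987, with adjusted p from 0.0604 to 0.119 there. Ndufa12l (-1.06 ± 0.36) and Ndufab1 (-1.05 ± 0.37) did not pass, with limma adjusted p of 0.143 and 0.154. Over the 80 members the median difference of effects was -0.26, against -0.02 for all genes.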

How the data were processed

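Each deposited scanner file holds spot intensity of a 1-colour (Cy3) array, from which Agilent Feature Extraction 10.5.1.1 had subtracted background, per the file headers. Normalization between arrays was not applied in them, per the file headers. The authors' series table holds the same intensity values. Control spots were left out, and each array's 75th percentile was taken off its log2 processed signals. From 55 to 100 spots of an array carried an outlier mark and were treated as missing, and 0 were saturated. Probes entered when well above background on at least 3 of 12 livers or 2 of 4 cell samples, and the brightest probe stood for a gene. Groups were compared with limma 3.58.1 in R 4.3.3, 2-sided, with Benjamini-Hochberg adjustment over 14650 genes (4 liver means), 14255 (inflammatory cells) or 15704 and 15705 (all 16 arrays, 6 means). The scripts were tested on simulated data. The members, the lists and the rule for naming genes were chosen with earlier results of these data known. Named were a panel of subunits and isoform pairs, up to 8 called members with the largest change in each direction of a comparison, and, where none passed, the 3 with the smallest p in each direction. Members not called beside many that were, and members with disagreeing probes, were named after their values were seen. Values of some genes are not reported here. The number of arrays limits the precision.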

Additional observations from a re-analysis of the deposited data

Results flagged for a closer look

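Ndufaf1, an assembly factor of complex I, had stem cell effects that differed between inflammatory cells and liver at 5 h by the test of the difference itself. The effect in inflammatory cells minus that in liver was -1.15 (SE 0.24, 95% interval -1.67 to -0.62, limma adjusted p 0.0296). The standard error and interval rest on a common estimate of the spread for livers and inflammatory cells. In the fit of inflammatory cells alone the standard error was larger and Ndufaf1 was not called. Ndufaf1 was lower with stem cells in both inflammatory cell samples, which held -0.93 and -0.55 against 0.39 and 0.18. In liver the groups overlapped, at 2.20, 2.05 and 2.24 against 2.07, 2.03 and 2.02. The call was lost in 11 of 19 alternatives, and the inflammatory cell samples with stem cells also had higher neutrophil and macrophage marker sums, whose part in the result was not tested.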

How the results depend on the processing

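The lower level of the members in inflammatory cells kept its direction under every alternative run, and its size moved with the scaling. The median of the members was -0.93 without stem cells and -1.01 with them under quantile normalization, and -1.59 with stem cells when arrays were scaled on probes detected everywhere. Quantile normalization also turned Atp5e (0.17) and Atp5g2 (0.25) without stem cells and Atp5g2 (0.29) and Cox8a (0.0210) with them. Leaving out 1 array at a time gave 73 to 76 lower members and medians of -1.68 to -1.50 without stem cells, and 77 lower members and medians of -2.001 to -1.757 with them. The higher members then numbered 1 to 2 without stem cells and 2 to 3 with them. Only 1 member was higher under normexp in both comparisons, and without stem cells also with array weights and in a fit of only the arrays compared.

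The signs in liver were less firm. At 2 h normexp left 3 members above 0 with a median of -0.32, and turned Atp5k (-0.17), Uqcrq (-0.20) and Ndufa2 (-0.25). The mean over all probes turned Uqcrq (-0.25). Without mice 10 and 11, chosen after seeing the data, 51 were above 0 with a median of 0.0204. Leaving out 1 liver gave 61 to 77 above 0 and medians of 0.08 to 0.18, and -0.149 to 0.0798 for Sdha. At 5 h, 69 to 78 members were above 0 over the main and 11 alternative settings of processing, with medians of 0.10 to 0.21. Leaving out 1 liver there gave 60 to 79 above 0 and medians of 0.07 to 0.26. Ndufa12l then ran from -0.1058 to 0.0609 (above 0 without mouse 2 or 5) and Ndufs1 from -0.130 to 0.0315 (above 0 without mouse 6), and array weights turned Ndufa12l (0.0189). In both, 0 members were called under all alternatives run.

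Over time without stem cells, 2 members were called under quantile normalization and 1 under scaling on probes detected everywhere, with probes above background on every array, with array weights and without mouse 11. Array weights turned Cox4nb (-0.0151) and Ndufa12 (-0.0376). Leaving out 1 liver gave 0 to 1 called and medians of -0.14 to -0.03. With stem cells 1 was called under quantile normalization, with array weights and without mouse 1. Normexp gave a median of 0.31 and turned Cox6b2 (-0.0637), Ndufa6 (0.0158) and Ndufb10 (0.0309). Leaving out 1 liver gave 0 to 1 called and medians of -0.17 to 0.03.

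For the difference of the liver effects, normexp gave a median of 0.42 and turned Cox6a2 (-0.14), Ndufa12l (0.13), Ndufs7 (0.28) and Ndufb2 (0.28). Array weights turned Ndufs7 (0.12) and Ndufb2 (0.10). Ndufs7 was 0.0366 without mice 10 and 13. Leaving out 1 liver gave 0 called and medians of -0.08 to 0.12, with Ndufs7 from -0.2331 to 0.0218 (above 0 without mouse 10) and Ndufb2 from -0.251 to 0.0201 (above 0 without mouse 5).

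In inflammatory cells normexp called 1 member with a median of -0.34, and quantile normalization gave a median of 0.11. Leaving out 1 sample gave 0 called and medians of -0.20 to 0.05. For the effect there minus that in liver, 0 members were called under normexp (median -0.44), with no filter on dim probes, with array weights and with only the arrays compared. Its median was -0.0289 under quantile normalization. Leaving out 1 array gave 0 to 10 called, the highest without sample 985, and medians of -0.41 to -0.13. The cause of these shifts was not tested. The livers were also paired by slide: slide as a block turned no named member and changed no call. The labels give the groups no shared replicate number, so no pairing by number was made. The number of arrays and the signal over background limit what could be detected.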
